A study of Mus musculus with 4 samples.

Results

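A total of 526 regions bound by tyrosine-phosphorylated STAT3 (pSTAT3) lay at divergent promoters, where transcription starts of differently named genes on opposite strands flank or share one short stretch of DNA. They were chosen by position alone: the midpoint of the region had to lie within 1 kb of a listed start on the + strand and within 1 kb of a listed start on the - strand. They made up 4.07% of the 12925 reproducible regions and 17.0% of the 3091 regions within 1 kb of any listed start. The other 2565 promoter regions lay near starts of one strand, or of one gene name, and are called one-direction promoters here. The remaining 9834 regions lay farther than 1 kb from every listed start.

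The data are chromatin immunoprecipitation and sequencing (ChIP-seq) of STAT3 phosphorylated at Y705, in oligodendrocyte progenitors, the dividing precursors of the cells that make myelin, taken as primary cells from the cortex of C57BL/6 mice. Cells were kept in the mitogens PDGF-AA at 10 ng/ml and bFGF at 20 ng/ml, and all of them had received the cytokine CNTF at 100 ng/ml for 15 min before fixation. There were 2 pSTAT3 ChIP libraries and 2 input libraries; the inputs were not analysed here, and no library came from cells without CNTF, so binding that depends on CNTF cannot be told apart from binding that does not. No label says that the 2 ChIP libraries came from separate cultures, and lysed cells were pooled before sonication, so their spread may be only technical.

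CNTF binds a receptor complex that contains gp130, whose attached JAK kinases phosphorylate STAT3. Phosphorylated STAT3 forms dimers that enter the nucleus and bind DNA at gamma-activated sites, which hold the palindrome TTCNNNGAA or its stronger form TTCCNGGAA. Divergent promoters are common in mammals. Many lie in CpG islands, serve a pair of housekeeping genes for DNA repair, RNA processing or mitochondria, or join a protein-coding gene to a noncoding RNA that is transcribed the other way.

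The promoter windows of 7 genes at strongly bound pairs are shown because they differ in what the bound pairs hold: no palindrome in either window of the strongest pair of protein-coding genes, 1 palindrome in the windows of Pih1d1 and Irf2, and 2 in the windows of Ripk1, Mrpl30 and Cish. Each runs from 250 bases before to 50 bases after the start of the gene, 5′ to 3′ on the gene's own strand, from the RefSeq promoter table of build GRCm38.p6. Capitals mark each TTCNNNGAA, which reads the same on both strands. In the order shown, they lie at chr6:48841233-48841532 on the + strand, chr6:48840939-48841238 on the - strand, chr7:45154053-45154352 on the + strand, chr8:46739495-46739794 on the + strand, chr13:34002624-34002923 on the + strand, chr1:37890227-37890526 on the + strand and chr9:107296409-107296708 on the + strand. Mrpl30 and Cish were chosen after their values were seen.
Tmem176a: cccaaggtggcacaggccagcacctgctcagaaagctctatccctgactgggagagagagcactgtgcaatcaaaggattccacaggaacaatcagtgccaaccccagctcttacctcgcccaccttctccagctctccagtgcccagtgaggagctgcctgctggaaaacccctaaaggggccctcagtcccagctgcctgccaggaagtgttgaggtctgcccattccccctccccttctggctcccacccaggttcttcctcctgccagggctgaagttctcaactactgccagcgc
Tmem176b: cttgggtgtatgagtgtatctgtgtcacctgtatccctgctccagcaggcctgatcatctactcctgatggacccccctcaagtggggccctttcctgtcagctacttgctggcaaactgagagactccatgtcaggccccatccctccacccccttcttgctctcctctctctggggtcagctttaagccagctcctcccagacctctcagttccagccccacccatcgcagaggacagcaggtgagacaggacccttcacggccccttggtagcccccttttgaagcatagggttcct
Pih1d1: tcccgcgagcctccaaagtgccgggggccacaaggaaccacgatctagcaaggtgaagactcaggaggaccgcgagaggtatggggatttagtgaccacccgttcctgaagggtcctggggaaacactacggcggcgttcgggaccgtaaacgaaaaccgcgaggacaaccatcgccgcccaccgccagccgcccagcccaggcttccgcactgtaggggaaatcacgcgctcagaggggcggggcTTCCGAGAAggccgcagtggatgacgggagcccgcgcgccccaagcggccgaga
Irf2: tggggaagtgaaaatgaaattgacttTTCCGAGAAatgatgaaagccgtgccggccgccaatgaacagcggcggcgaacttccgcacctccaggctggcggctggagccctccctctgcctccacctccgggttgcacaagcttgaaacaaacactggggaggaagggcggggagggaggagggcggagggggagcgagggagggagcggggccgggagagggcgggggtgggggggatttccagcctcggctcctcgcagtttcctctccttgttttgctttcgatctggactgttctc
Ripk1: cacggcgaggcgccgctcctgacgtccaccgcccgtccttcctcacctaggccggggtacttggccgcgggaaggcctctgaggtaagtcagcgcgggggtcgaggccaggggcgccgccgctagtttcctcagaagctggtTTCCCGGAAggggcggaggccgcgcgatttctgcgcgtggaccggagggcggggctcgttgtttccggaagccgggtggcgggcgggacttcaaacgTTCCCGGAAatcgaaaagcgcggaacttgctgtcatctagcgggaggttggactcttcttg
Mrpl30: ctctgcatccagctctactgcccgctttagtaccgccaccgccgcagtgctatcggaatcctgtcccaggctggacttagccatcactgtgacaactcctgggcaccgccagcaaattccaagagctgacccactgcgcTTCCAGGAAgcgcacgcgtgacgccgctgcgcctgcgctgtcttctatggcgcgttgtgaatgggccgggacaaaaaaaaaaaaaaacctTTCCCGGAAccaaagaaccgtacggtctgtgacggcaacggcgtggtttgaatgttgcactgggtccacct
Cish: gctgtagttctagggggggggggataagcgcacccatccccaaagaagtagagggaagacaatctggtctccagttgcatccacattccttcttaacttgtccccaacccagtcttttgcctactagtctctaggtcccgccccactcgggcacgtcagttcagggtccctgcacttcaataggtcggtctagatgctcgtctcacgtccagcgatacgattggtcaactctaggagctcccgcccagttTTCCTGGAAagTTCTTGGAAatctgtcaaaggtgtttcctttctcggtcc

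Counted from 1 at the 5′ end of the window, the palindrome began at position 247 in Pih1d1, at position 27 in Irf2, at positions 143 and 240 in Ripk1, at positions 140 and 230 in Mrpl30, and at positions 251 and 262 in Cish. Its middle base lay 42 bp from the midpoint of the bound region at Pih1d1, 112 bp at Irf2, 73 and 170 bp at Ripk1 and 64 and 154 bp at Mrpl30. At Cish both lay on the other side of the midpoint, at -29 and -18 bp, just after the RefSeq start of the gene and before the listed Cish start of the authors' table, which lies 18 bp to the right of the midpoint. The windows of the partner genes of Irf2, Ripk1 and Mrpl30 overlap those shown and hold the same sites read from the opposite strand. A match is a description of the letters, not a measured binding site.

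The strongest member by fold enrichment, the authors' value for a peak over its local background, lay at Gm15327/Map3k1 on chromosome 13 (111809198 to 111810305; + strand gene first here and below, coordinates of build GRCm38.p3). It reached 48.7-fold in replicate 1 and 49.997-fold in replicate 2, with 307 and 213 stacked fragments at the summits. Map3k1 encodes a kinase at the top of the JNK and ERK cascades, and its partner is a noncoding RNA gene. The region covered neither start: its midpoint lay 610 bp from the Gm15327 start and 758 bp from the Map3k1 start. Among all 12925 regions, ranked by the lower of both fold enrichments, it stood at place 7. Of the strongest 50 regions 3 were at divergent promoters (6%), and of the strongest 100 regions 5 were (5%). Both shares are near the 4.07% that the members made up of all regions.

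Tmem176a/Tmem176b, a pair of related genes for membrane proteins that are best known from immune cells, followed with 45.8-fold in replicate 1 and 47.9-fold in replicate 2. The bound region, chromosome 6 from 48840169 to 48841876, covered both starts, which lie 495 bp apart, and its midpoint lay between them. Neither window of the pair held TTCNNNGAA, as the sequences above show, and both were poor in CpG, with observed over expected ratios of 0.0791 for Tmem176a and 0.0842 for Tmem176b. It was the only member with windows of both genes under a ratio of 0.4, among 187 members for which the RefSeq table holds both windows. In 148 of those 187 members (79.1%, 95% Wilson interval 72.8 to 84.4) both windows had a ratio of 0.7 or more.

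Pih1d1/Aldh16a1 on chromosome 7 (45153842 to 45154681) had 40.9-fold enrichment in replicate 1 and 39.8-fold in replicate 2. Pih1d1 encodes a subunit of the R2TP chaperone complex, and Aldh16a1 a member of the aldehyde dehydrogenase family. Here the starts crossed: the + start lay 144 bp to the left of the - start, so the first parts of the transcripts overlap, and the region covered both.

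Irf2/Gm16675 on chromosome 8 (46739145 to 46739682) had 38.8-fold and 35.8-fold enrichment, Irf2 being an interferon regulatory factor that mostly represses interferon-responsive genes. Ripk1/Serpinb6a on chromosome 13 (34002094 to 34003301) had 39.3-fold and 32.2-fold enrichment. Ripk1 is the kinase that links the TNF receptor to survival or cell death, and Serpinb6a is an intracellular inhibitor of serine proteases. Eny2/Nudcd1 reached 38.5-fold in replicate 1 and 33.3-fold in replicate 2, and Zbtb1/Zbtb25, a pair of zinc finger transcription factors, 39.2-fold and 29.4-fold. Eny2 encodes a small subunit that the SAGA coactivator shares with the mRNA export complex TREX-2.

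At the other 8 of the strongest 15 members, the partner of the protein-coding gene had a predicted or clone-based name. Gm4221/Zfp608 had 44.7-fold enrichment in replicate 1 and 43.9-fold in replicate 2, and Gm26876/Ikzf4, at a gene of the Ikaros family of transcription factors, had 41.6-fold and 37.1-fold. Psmd3/Gm12356, at a subunit of the regulatory particle of the proteasome, had the highest value of any member in replicate 1, 52.2-fold, and 36.3-fold in replicate 2. Gm20036/Trip11, at a gene for a golgin, had 38.3-fold and 30.4-fold, and Arf6/Gm9887, at a small GTPase of endocytosis, 35.7-fold and 29.2-fold. The strongest 15 were completed by 9930004E17Rik/Pde12 (31.3-fold and 27.7-fold), RP23-353G11.6/Dnajc13 (34.3-fold and 27.2-fold) and RP23-314I1.1/Igsf10 (38.8-fold and 26.8-fold). In all 8, replicate 1 gave the higher value.

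Among the 10 strongest members whose genes both have established names, 5 fell outside that group of 15. These were Eif1a/Tmed7 with 28.5-fold enrichment in replicate 1 and 26.6-fold in replicate 2, Dxo/Stk19 with 29.9-fold and 26.2-fold, C2cd3/Ppme1 with 30.4-fold and 25.3-fold, Mrpl30/Mitd1 with 28.7-fold and 25.1-fold, and Trappc2l/Galns with 28.6-fold and 23.3-fold. Eif1a is a translation initiation factor, Dxo an enzyme that removes incomplete mRNA caps, C2cd3 a centriole protein, Mrpl30 a protein of the mitochondrial ribosome, and Galns a lysosomal sulfatase. All 5 regions covered both starts.

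**Figure D1:**
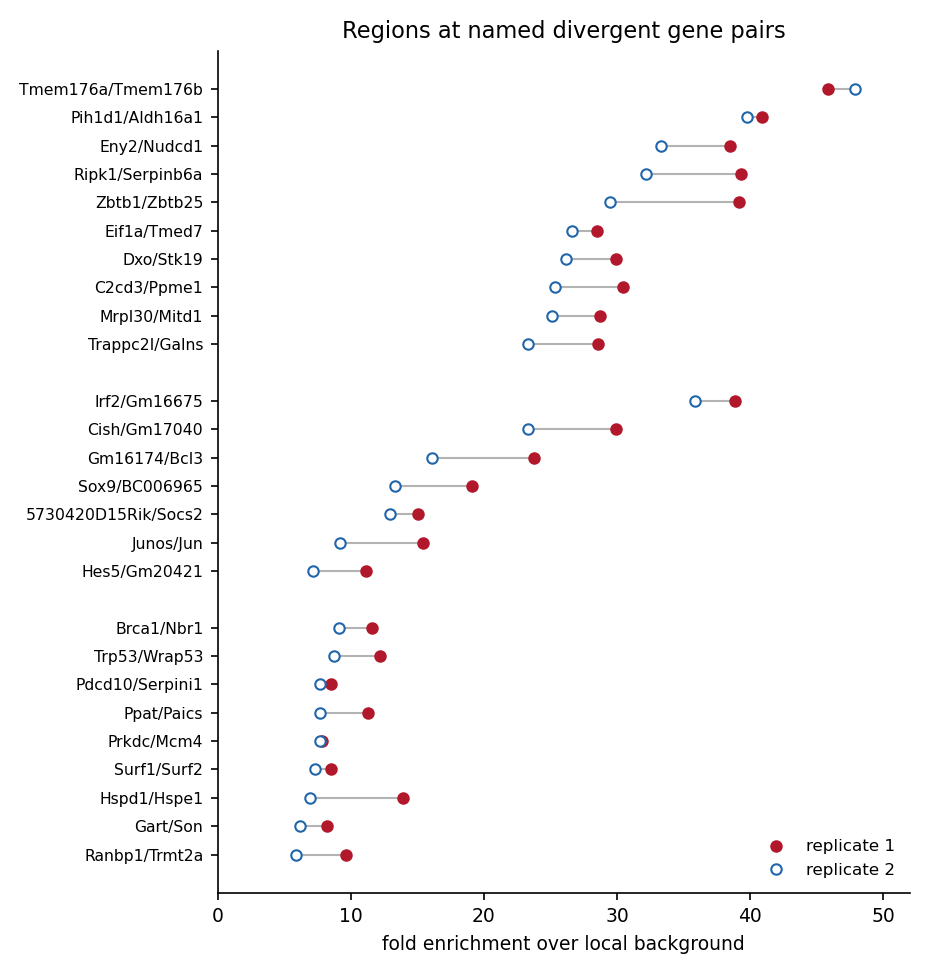
Fold enrichment over local background (x axis) in replicate 1 (filled) and replicate 2 (open) for regions at named divergent pairs. The + strand gene comes first in the upper and middle blocks, while the lower block names pairs without regard to strand. The upper block holds the strongest pairs with established names on both strands, the middle block pairs with a STAT3 target, glial, immediate early or interferon factor gene, and the lower block known bidirectional pairs. The known bidirectional pairs sit between 5.89-fold and 13.9-fold, beside medians over all members of 11.2-fold in replicate 1 and 7.75-fold in replicate 2. The upper block was chosen by strength, so its higher values are set by that choice.

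As a group, the 526 members were bound at nearly the same level as other promoter regions. Their median fold enrichment was 11.2 in replicate 1 (quartiles 7.70 and 16.4) and 7.75 in replicate 2 (5.63 and 11.97), against 10.5 (7.63 and 16.1) and 7.51 (5.63 and 11.5) at one-direction promoters. Regions over 1 kb from starts had medians of 10.3 and 7.51. On the log2 scale the medians at divergent promoters exceeded those at one-direction promoters by 0.093 in replicate 1 and by 0.044 in replicate 2, which is small beside the distance between the quartiles; for the lower fold it was 0.046, and 0.13 with a window of 500 bp in place of 1 kb. With 2 libraries of 1 condition there is no test over samples for this difference, and none is given.

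An enrichment of 10-fold or more in both libraries was reached by 184 members, or 35.0% (95% Wilson interval 31.0 to 39.2), by 805 one-direction promoter regions, or 31.4% (29.6 to 33.2), and by 31.1% of all regions. The members' share was thus near the background. An irreproducible discovery rate (IDR) of 0.01 or less was reached by 80.4% of members, 79.2% of one-direction promoter regions and 79.3% of all regions. Members were somewhat wider, with a median of 614 bp, against 561 bp at one-direction promoters and 504 bp over all regions. The intervals cover counting error over regions only, and regions are not replicates.

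**Figure D2:**
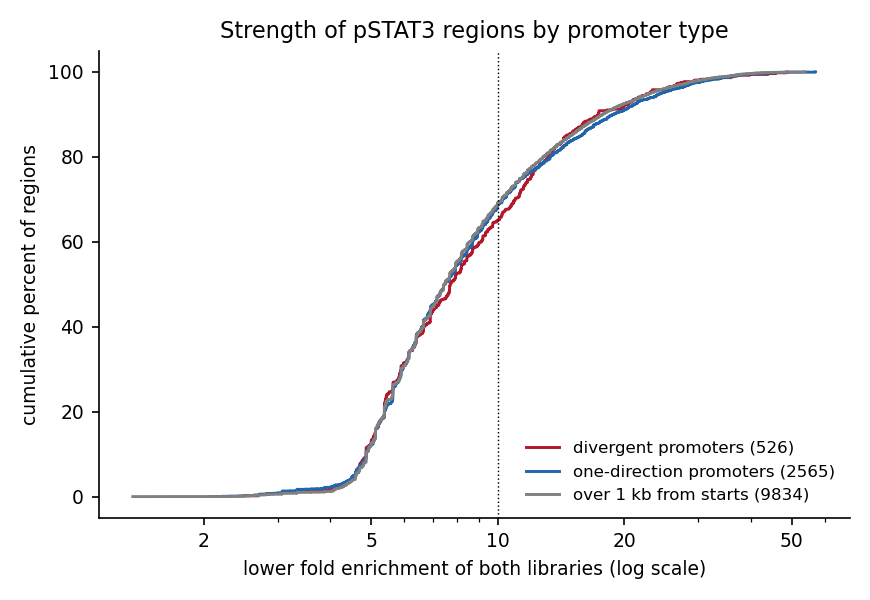
Cumulative percent of regions (y axis) against the lower fold enrichment of both libraries (x axis, log scale) for 526 regions at divergent promoters, 2565 at one-direction promoters and 9834 over 1 kb from starts. The curves lie close to each other over the whole range, and at the dotted line of 10-fold 35.0% of divergent, 31.4% of one-direction and 30.8% of more distant regions lie to the right.

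The table of reproducible regions keeps regions whose ranks agree between these libraries, so a like order of the members in both was largely fixed by that choice. The fold enrichment of replicate 1 was above that of replicate 2 in 507 members (96.4%), and in 95.2% of one-direction promoter regions. Across members, Spearman's rho between the libraries was 0.927, and across one-direction promoter regions 0.909; these are correlations across regions of the same libraries, which are no independent replicates. The 5 largest ratios of replicate 1 to replicate 2 were at Asb15/Ndufa5 (13.8-fold in replicate 1 and 5.38-fold in replicate 2), Gm13275/Gm26525 (10.8-fold and 4.59-fold), Gm13562/Snapc4 (13.5-fold and 6.04-fold), C630016N16Rik/Tmem147 (10.0-fold and 4.49-fold) and Gm10614/Gins2 (11.5-fold and 5.21-fold). Replicate 1 had more peaks, 42189 against 26649, and a higher lowest background of the peak caller, 4.72 against 2.91 fragments.

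The weakest members were Timm8b/Sdhd, with 3.13-fold enrichment in replicate 1 and 2.70-fold in replicate 2, Hist1h2br/Hist1h2ap, with 3.21-fold and 2.71-fold, and a region with 2.73-fold and 2.49-fold beside Hs2st1. One partner name of this last region had been turned into a date in the deposited table. Timm8b and Sdhd are a mitochondrial import chaperone and a subunit of succinate dehydrogenase. The summits of these 3 held 18 to 24 stacked fragments in replicate 1 and 11 to 15 in replicate 2.

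**Figure D3:**
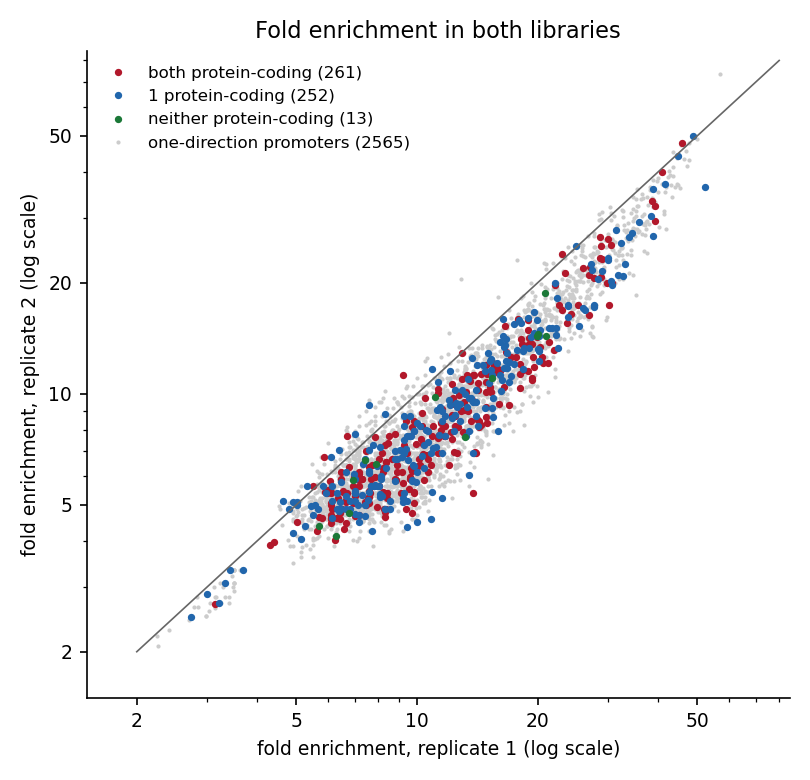
Fold enrichment in replicate 2 (y axis) against replicate 1 (x axis), both on log scales, for regions at divergent promoters. Colours show whether both (261), 1 (252) or neither (13) gene of the pair matched a protein-coding RefSeq gene. The 2565 one-direction promoter regions are in grey, with the line of equal values. Most points of all kinds lie below the line, 96.4% of those at divergent promoters.

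The name divergent holds in its narrow sense for most of the regions. The nearest starts stood head to head, with the - start to the left of the + start so that transcription runs apart, in 380 of 526 members (72.2%, 95% Wilson interval 68.3 to 75.9). In the other 146 (27.8%) the starts crossed, so that the listed transcripts overlap at their 5′ ends, by a median of 373 bp. This split takes the start nearest to the midpoint on each strand; with any listed starts within 1 kb, 424 members had a head-to-head pair. Head-to-head starts were a median of 169 bp apart (quartiles 102 and 332 bp): 92 pairs lay within 100 bp, 178 farther than 100 and up to 300 bp, and 110 farther still.

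The shortest distances were 1 bp at Lyrm1/Dcun1d3, bound at 18.9-fold in replicate 1 and 13.6-fold in replicate 2, a crossing of 1 bp at Tmbim4/Irak3 (11.3-fold and 6.91-fold) and a crossing of 3 bp at Fcf1/Arel1 (5.90-fold and 5.43-fold). Irak3 is an inhibitor of Toll-like receptor signalling. The longest distances were 1602 bp at Asxl1/2500004C02Rik (18.3-fold and 13.1-fold), 1555 bp at 2310036O22Rik/Asna1 (8.23-fold and 6.28-fold) and 1521 bp at Acadsb/Ikzf5 (7.94-fold and 4.93-fold). Asxl1, a Polycomb-associated chromatin regulator, had a further region at another pair of listed starts of the same genes, 35 bp apart, with 27.6-fold enrichment in replicate 1 and 17.2-fold in replicate 2.

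By its midpoint, the region did not lie between the starts as a rule. Of the 380 head-to-head regions, the midpoint lay between the starts in 159 (41.8%), on the side of the - strand gene in 123 (32.4%) and on the side of the + strand gene in 98 (25.8%), with a median distance of 136 bp from the centre. With the closest pair of listed starts in place of the nearest to the midpoint, the share between the starts was 26.4%. It was 47.3% with the summit of replicate 1 as the position and 47.2% with that of replicate 2. Over all 526 members, the midpoint lay a median of 69 bp from the nearer start and 289 bp from the farther one. The region covered both starts in 304 members (57.8%) and at least 1 start in 465 (88.4%). These distances are bounded by the rule that chose the members.

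**Figure D4:**
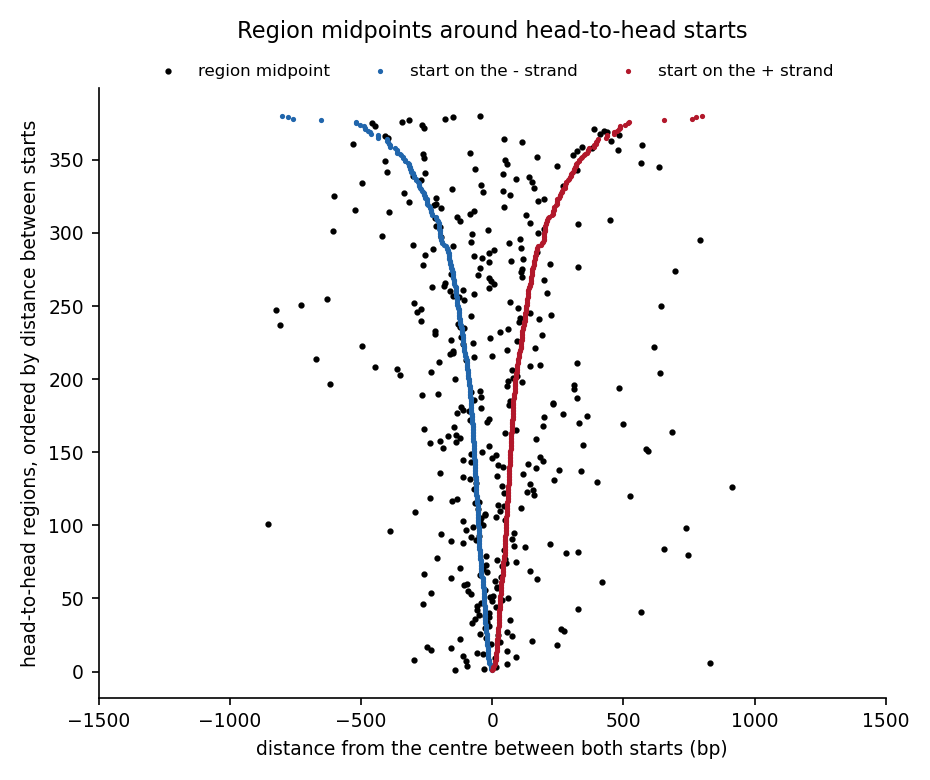
Position of the region midpoint (black) around the centre between the nearest starts (x axis, bp) for 380 head-to-head members, ordered from the shortest distance between starts at the bottom to the longest at the top (y axis), with the - start in blue and the + start in red. Midpoints fall between the starts in 159 regions and scatter to both sides in the others, 123 on the - gene's side and 98 on the + gene's side.

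The median strength was higher where the starts were closer. The median of the lower fold was 8.56 in the 92 head-to-head members within 100 bp, 7.96 in the 178 farther than 100 and up to 300 bp, and 6.96 in the 110 farther apart, against 7.46 at one-direction promoters. The quartiles overlapped widely, at 5.38 and 11.9 for the closest pairs, 5.52 and 12.6 for the middle ones and 5.71 and 11.97 for the farthest. Members that covered both starts had a median of 9.17, and those that did not 6.59, and the regions of the first kind were also wider, with a median of 705 bp against 494 bp. The part that width had in this difference was not tested.

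At the edge of the rule, the 25 members whose farther start lay over 900 bp away had a median lower fold of 6.40 (4.63 to 14.3). The 25 regions just outside it, with the farther start up to 1100 bp away, had a median of 7.98 (4.46 to 33.7).

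By RefSeq class, both genes were protein-coding in 261 members (49.6%), 1 was in 252 (47.9%) and neither in 13 (2.47%). Of the 1014 gene names, 746 matched protein-coding genes, 157 long noncoding RNA genes and 100 had no match. Names without a match were counted as not protein-coding. The histone gene Hist1h2ap was one of them, so the mixed pairs include pairs with an unclassed partner. Established names on both strands were found in 262 members (49.8%). Head-to-head starts were found in 216 of the 261 pairs of protein-coding genes (82.8%) and in 158 of the 252 mixed pairs (62.7%). In the mixed pairs the protein-coding start was the nearer one in 149 (59.1%). Fold enrichment differed little between the classes, with a median lower fold of 7.65 for pairs of protein-coding genes and 7.94 for mixed pairs.

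Most pairs carried a single region. The 526 members fell on 510 distinct pairs, of which 15 had more than 1 region and Ermard/Gm3448 had 3. Another reproducible region lay within 5 kb of 82 members (15.6%, 95% Wilson interval 12.7 to 18.9), against 483 one-direction promoter regions (18.8%, 17.4 to 20.3).

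A set of 15 gene pairs known as bidirectional from mammals was picked by hand from well-known genes. Among protein-coding RefSeq genes that stand head to head with a protein-coding gene, 341 of 1483 genes (23.0%) had a region. That share counts single genes with a region within 1 kb of any of their RefSeq starts. It cannot be set against a count of pairs that needs listed starts on both strands. Of the 15 pairs, 9 were among the members. These were Hspe1/Hspd1, the mitochondrial chaperonin pair (13.9-fold in replicate 1 and 6.91-fold in replicate 2), Trp53/Wrap53 (12.2-fold and 8.74-fold), Nbr1/Brca1 (11.6-fold and 9.11-fold), Paics/Ppat of purine synthesis (11.3-fold and 7.65-fold), Ranbp1/Trmt2a (9.62-fold and 5.89-fold), Serpini1/Pdcd10 (8.49-fold and 7.71-fold), Surf2/Surf1 (8.48-fold and 7.34-fold), Son/Gart (8.22-fold and 6.14-fold) and Prkdc/Mcm4 (7.85-fold and 7.64-fold). None of the 9 reached 10-fold in both libraries, beside 35.0% of all members, a comparison that rests on few pairs picked by hand. The other 6, named without regard to strand, had no reproducible region within 1 kb of either gene. They were Atm/Npat, Col4a1/Col4a2, Col4a3/Col4a4, Mrps12/Sars2, Tap1/Psmb9 and Rad9a/Ppp1ca.

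Genes known as STAT3 targets were found at both kinds of promoter. Of 40 genes of the JAK-STAT pathway and its targets, 3 lay at divergent and 18 at one-direction promoter regions, which is a share of 14.3% at divergent ones, on few genes, beside 27.0% of all 2802 protein-coding names at promoter regions (756 names). Those 3 were Cish, a SOCS-family inhibitor of STAT signalling (Cish/Gm17040, 29.9-fold in replicate 1 and 23.3-fold in replicate 2), Bcl3, an atypical IkappaB protein (Gm16174/Bcl3, 23.8-fold and 16.1-fold), and Socs2, another SOCS-family inhibitor (5730420D15Rik/Socs2, 15.0-fold and 12.9-fold). Each had a partner that is predicted or named by a cDNA clone, and the starts crossed by 482 bp at Cish and stood 557 bp apart at Bcl3 and 195 bp apart at Socs2. Stat3, Socs3, Il6st, Junb, Fos, Gfap, Mbp and Olig2 were not members. Jun, the AP-1 subunit, was one through its antisense neighbour (Junos/Jun, 15.4-fold and 9.17-fold), and was named after its value was seen.

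In 3 lists of housekeeping functions, the share at divergent regions was above the 27.0% of all names. Both genes of a pair count where both are listed. Of 38 RNA processing genes, 8 lay at divergent and 4 at one-direction promoter regions. The strongest were Hnrnpa2b1, an RNA-binding protein of splicing and transport (Cbx3/Hnrnpa2b1, 29.0-fold in replicate 1 and 23.2-fold in replicate 2), the helicase gene Ddx5 (Cep95/Ddx5, 26.8-fold and 21.0-fold) and the spliceosome gene Sf3b3 (Cog4/Sf3b3, 20.3-fold and 13.4-fold). Prpf31, Son, Polr2b, Hnrnpk and Cpsf3 lay between 4.59-fold and 8.66-fold by the lower value of both libraries. Of 45 genes of the mitochondrial ribosome and respiratory chain, 7 lay at divergent and 3 at one-direction regions, with Mrpl30 first and Ndufa8, a complex I subunit, second (Morn5/Ndufa8, 22.6-fold and 17.4-fold). The 7 genes lay at 6 pairs, since Hspe1 and Hspd1, which are chaperonins and not subunits of either machinery, share one. Of 42 DNA repair and replication genes the counts were 8 and 7, and the 8 lay at only 6 pairs, as Trp53 and Wrap53 share one and so do Prkdc and Mcm4. Xrcc6, the Ku70 subunit of the DNA end-joining machinery, had the highest value (Xrcc6/Desi1, 11.3-fold and 10.0-fold).

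The other lists stood below the 27.0% of all names. Cytosolic ribosome and translation genes counted 2 at divergent and 9 at one-direction regions, genes of the endoplasmic reticulum, Golgi and lysosome 2 and 9, cell cycle and growth arrest genes 1 and 10, and chromatin regulators and histones 0 and 8. These counts hold for the listed genes only, and the lists do not hold every gene of their kind. The chromatin regulator gene Asxl1, the histone pair Hist1h2br/Hist1h2ap, Eif1a, Trip11 and Galns were members but not on these lists. Of the cell type lists, oligodendrocyte lineage and myelin genes counted 2 and 8, astrocyte markers 1 and 9, microglia markers 0 and 2, and neuron markers 0 and 1. Sox9, a transcription factor of glial specification that is on both the oligodendrocyte and the astrocyte list, had 19.1-fold enrichment in replicate 1 and 13.3-fold in replicate 2 (Sox9/BC006965), and the Notch effector Hes5 had 11.2-fold and 7.17-fold (Hes5/Gm20421). ChIP gives no expression, so the identity of the cells was not checked from these lists.

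The lists also differed in how many of their genes have a head-to-head neighbour, whatever the binding. In RefSeq, a start of the opposite strand stood head to head within 1 kb of 16 of 33 matched RNA processing genes (48.5%) and 16 of 39 mitochondrial genes (41.0%), of 9 of 33 cytosolic ribosome genes (27.3%) and of 0 of 35 STAT3-related genes, of 4 of 31 genes of the endoplasmic reticulum, Golgi and lysosome (12.9%), 3 of 28 cell cycle genes (10.7%) and 2 of 16 astrocyte markers (12.5%), against 13.2% of all 17491 protein-coding genes with a promoter window. Of the names at promoter regions, the share at divergent ones was 70% for mitochondrial and 66.7% for RNA processing genes. It was 18.2% for cytosolic ribosome genes, and 18.2% for genes of the endoplasmic reticulum, Golgi and lysosome. STAT3-related genes had 14.3%, astrocyte markers 10% and cell cycle genes 9.09%. Counted over all listed genes, 2 of 40 cytosolic ribosome genes and 3 of 40 STAT3-related genes lay at a divergent region. Of those 3, Cish had no head-to-head start in the RefSeq windows, Bcl3 was a member through a listed transcript start over 1 kb from its RefSeq start, and Socs2 had no window. For DNA repair, chromatin, oligodendrocyte, microglia and neuron genes, fewer than 80% matched a window, so the same check is void for them. What part the arrangement of the genes had in the list counts was not tested.

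Taken from the side of the genes, a larger share of head-to-head genes had a pSTAT3 region. Of 2301 protein-coding genes with a head-to-head start within 1 kb, 497 (21.6%, 95% Wilson interval 20.0 to 23.3) had a start within 1 kb of the midpoint of a region, against 1495 of 14658 (10.2%, 9.72 to 10.7) with no opposite start, and 11.96% of all 17491. The share was 23.0% where the neighbour was protein-coding and 19.1% where it was not. A region between a pair counts for both genes, so the genes are not independent.

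CpG content moved with this difference. The median CpG observed over expected ratio was 0.818 in the windows of head-to-head genes and 0.485 in those of genes with no opposite start. Within classes of that ratio, the shares of head-to-head genes and of genes with no opposite start were 12.1% and 3.01% below 0.4, 22.3% and 13.1% at 0.4 to 0.7, 22.8% and 17.3% at 0.7 to 0.9, and 22.5% and 18.8% at 0.9 or more. In percentage points the gap was of like size in the lower pair of classes and smaller in the upper pair, and in the most CpG-rich class the intervals overlapped. Among genes with a single window, the shares were 20.6% and 8.89%. 

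**Figure D5:**
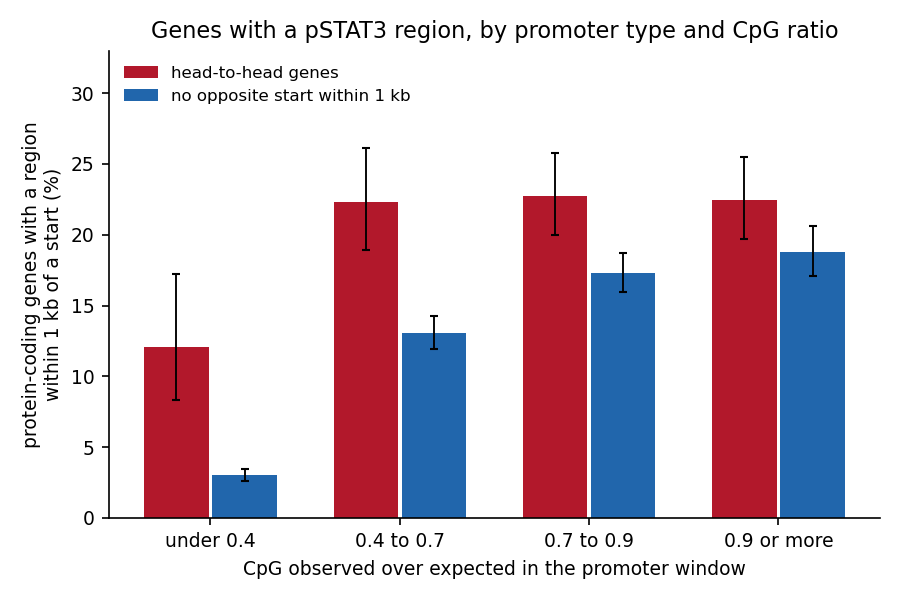
Percent of protein-coding genes with a pSTAT3 region midpoint within 1 kb of a start (y axis), for head-to-head genes (red) and genes with no opposite start within 1 kb (blue), in classes of the CpG observed over expected ratio of the promoter window (x axis); bars show 95% Wilson intervals. Head-to-head genes stand higher in each class, for example 12.1% and 3.01% below 0.4, and least so at 0.9 or more (22.5% and 18.8%).

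The palindrome of gamma-activated sites was searched in the RefSeq windows. A RefSeq window was at hand for 413 of 526 members (78.5%) and 1297 of 2565 one-direction promoter regions (50.6%); with fewer than 80% matched, a comparison of these sets is void, and the shares describe only the matched regions. TTCNNNGAA stood in a window of 71 of the 413 (17.2%, 95% Wilson interval 13.9 to 21.1) and of 211 of the 1297 (16.3%, 14.4 to 18.4). TTCCNGGAA, which is contained in the first, stood in 6.05% and 6.25%. These shares count regions with a match in any of their windows, so they are not like shares of single windows. Per window, TTCNNNGAA stood in 13.5% of 709 windows at divergent regions and 15.1% of 1554 at one-direction regions. TTCCNGGAA stood in 5.22% and 5.79% of them. Of all 32851 promoter windows, 8.30% held TTCNNNGAA and 1.15% held TTCCNGGAA on either strand, both motifs being their own reverse complement. These sets of windows also differed in composition. Median GC content was 63.3% at divergent regions, 60.7% at one-direction regions and 52.7% over all windows. The median CpG ratios were 0.855, 0.766 and 0.384. What part composition had in the motif shares was not tested.

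Among matched members, those with the palindrome had the higher median strength. The median lower fold was 11.3 in the 71 members with TTCNNNGAA (quartiles 7.03 and 16.3) and 7.68 in the 342 without it (5.49 and 11.3). With TTCCNGGAA it was 15.9 in 25 members, against 7.68 in 388 without it. One-direction promoter regions gave 10.0 with TTCNNNGAA and 7.33 without, and 17.1 with TTCCNGGAA and 7.36 without. Where a window of the pair itself held TTCNNNGAA, in 68 members, the nearest copy lay a median of 100.5 bp from the midpoint, within 100 bp in 34 of them. The windows cover only 300 bases of each promoter, and 342 matched members, Tmem176a/Tmem176b among them, had no copy in them.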

How the data were processed

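Per the submitters' processing notes, CASAVA 1.8, Bowtie2 and MACS2 were run against build GRCm38.p3; their options are not given in the sources used here. The authors deposited 1 peak list for each ChIP library and 1 table of reproducible regions with the Ensembl transcripts around them. The pileup signal in the deposited lists is the number of fragments stacked at a peak's summit, and the fold enrichment is the ratio of a peak to the caller's local background, per the file headers. The deposited lists also hold the −log10 of each peak's p, under a damaged header. In the deposited table, the adjusted p-value column holds the IDR, at most 0.05, and the column headed fold enrichment equals the mean −log10 p of both libraries within 0.001 for 95.8% of regions, so it was not used as a fold.

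Each region was given the fold enrichment and pileup of the strongest peak overlapping it by at least 1 bp in each library, and its strength is the lower fold of both. The summit column of the table is the midpoint of the region. The start of a transcript is its left end on the + strand and its right end on the - strand. A pair is represented by the start nearest to the midpoint on each strand. Genes were classed by a RefSeq gene table of GRCm38.p6, by symbol or unique synonym, and promoter windows of 250 bases before to 50 after a start came from RefSeq; the windows of 1 chromosome were not used here. Where opposite windows overlap, 1911 comparisons of their letters gave 0 mismatches.

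With 2 libraries of 1 condition no p-value was computed; shares carry 95% Wilson intervals, which cover counting error only. Read totals were not used; the measure of depth is the lowest local background, 4.72 fragments in replicate 1 and 2.91 in replicate 2. The members, the gene lists and the rule for named genes were chosen with earlier results of these data known. Named were the 15 strongest members, the 10 strongest with established names, the 3 strongest of each list, the known bidirectional pairs, the 3 weakest, the 3 shortest and 3 longest distances, the 5 largest replicate ratios, and 10 fixed genes where they are members. Alternatives were windows of 500 bp and 2 kb, an IDR of 0.01, established names only, library summits as positions, head-to-head starts only, an overlap of at least 50% of the peak, pileup as strength, each library alone and the weak end left out. Beside the 15 known bidirectional pairs given, 1 further pair is not reported here. The rule was tested on simulated regions. The computations ran in Python 3.11.15 (scipy 1.17.1, pandas 2.3.3, numpy 2.4.6; plots with matplotlib 3.10.9).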

Additional observations from a re-analysis of the deposited data

How the results depend on the processing

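The log2 difference in median strength between divergent and one-direction promoters stayed above 0 in every setting run: it was 0.046 as reported, 0.13 with a 500 bp window, 0.085 with pileup as strength, 0.024 with established names only, 0.029 with the weak end left out, and 0.044 to 0.093 with one library left out. The median strength was 7.75 to 11.2 and the share at 10-fold or more 35.2 to 56.1% with one library left out. Starts stood head to head in 79.3% with a 500 bp window, 67.4% with a 2 kb window and 83.2% with established names only. Pairs with established names made up 54.7% with 500 bp, 45.4% with 2 kb and 56.6% with head-to-head starts only. The midpoint lay between the starts in 47.3% and 47.2% with the summits of replicate 1 and replicate 2, and in 26.4% with the pair of starts that lie closest together, an alternative chosen after seeing the data. With established names only, 262 regions remained members, since predicted partners no longer count. The causes of the other shifts were not tested. The number of members was 386 with 500 bp and 699 with 2 kb. The other values, 47 in number with these, moved by less than the replicate SD or stayed within their Wilson interval, apart from the number of members, which was compared as a ratio. That SD comes from 2 libraries and is wide, 2.44 for the median strength and 14.8 percentage points for the 10-fold share. With an IDR of 0.01 or below, the median strength was 9.02 at divergent and 8.75 at one-direction promoters. The 10-fold share of the 423 members left was then 43.5%, outside the Wilson interval of 31.0 to 39.2 reported for all members. That filter raised the median at one-direction promoters too, from 7.46 to 8.75. For other regions, the 10-fold share was not computed at this IDR or with one library left out. These shares of members therefore have no background beside them. No paired analysis was possible because the study has 1 condition. The depth of the libraries, 11 stacked fragments at the lowest summit, limits what can be said of the weakest members.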
